A study of Mus musculus with 6 samples.

Results

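The proteasome is the particle that degrades proteins tagged with ubiquitin. The 36 genes described here encode the structural subunits of its 19S cap and 20S core and the factors that assemble them, and they were chosen by name: 6 ATPases of the 19S cap (Psmc1 to Psmc6), 15 further 19S genes (Psmd1 to Psmd14 and Adrm1), 7 alpha subunits of the 20S core (Psma1 to Psma7), 4 beta subunits (Psmb1 to Psmb4) and 4 assembly factors (Pomp and Psmg1 to Psmg3). All 36 were found among the 46959 rows of the deposited expression table, and all 36 were among the 12955 genes that passed the filter on low values, a CPM (reads of a gene scaled to a common library total) of at least 1 in at least 3 libraries. RNA-seq was performed on haematopoietic stem cells (HSCs) of 3 control and 3 MaeaCsf1r-Cre replicates from mice aged 8 weeks by the series' design text (the study's methods give a wider range of young adult ages), control animals being littermates. Each library was made from about 2000 HSCs sorted from bone marrow and pooled from a pair of mice. In MaeaCsf1r-Cre mice Maea, which encodes a RING subunit of a ubiquitin ligase complex, is deleted by a Cre recombinase under the Csf1r promoter. Csf1r encodes a receptor of macrophages and monocytes, so the deletion is not restricted to HSCs. The labels call the other group control and do not say which alleles those littermates carry. Nothing states that the mice behind different libraries were from separate litters, so p-values measure the spread between these libraries only.

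In the proteasome, the 19S cap binds ubiquitin chains, removes them and unfolds the substrate with its ring of ATPases, and the 20S core cuts the unfolded chain inside a barrel of stacked alpha and beta rings. Haematopoietic stem cells make protein slowly and are known to be sensitive to misfolded protein. Proteasome genes are known to be transcribed together, with the factor Nfe2l1 acting on antioxidant response elements when proteasome activity is short. Promoters of housekeeping genes in general often hold sites for factors of the ETS family and for nuclear respiratory factor 1 (NRF1, a different protein from Nfe2l1).

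Promoter sequence from RefSeq (GRCm38.p6, 250 bases before to 50 after the start site) matched 30 of the 36 genes, in 32 windows. The ETS core CCGGAAG was found on either strand in 15 of the 32 windows, 46.9%, against 17.9% of the 11662 windows of genes tested and 8.86% of all 32851 windows. The GC-rich palindromic consensus site of NRF1 was found in 7 of 32 (21.9%, against 10.2% and 4.60%). Stretches of 30 bases around sites in genes whose values are given further on are printed here, on the strand of the gene, with the matched letters in capitals.

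Pomp, chr5:147860568-147860597: ggaaggacgcaCTTCCGGcggatggggcgg
Psmd13, chr7:140882377-140882406: cgcccgcggtgCCGGAAGtgagcgagcact
Psmc6, chr14:45329713-45329742: aggcgggccagCCGGAAGgggcggagccag
Psmg1, chr16:95991011-95991040: ctcgcggcggaCCGGAAGctcttaggttct
Adrm1, chr2:180171598-180171627: ccaagcacgggCTTCCGGcgaggcccggca
Psma3, chr12:70974535-70974564: tatggtttctGCGCACGCGCgctctctgct
Psmc4, chr7:28050242-28050271: aagagttactGCGCACGCGCaacatccttg
Psmg1, chr16:95990911-95990940: actgcgggccggcGCGCATGCGCtgtctgg

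The first 5 lines hold the ETS core and the last 3 the NRF1 site. The ETS matches lay close to the start sites: of 18 matches in 14 genes, 16 were at most 100 bases away, with a median of 27 bases before the start. At least 1 of the 2 motifs was in 21 of the 32 windows, and Psmg1, which held both, was the 1 gene with a window holding both. The core of the antioxidant response element, TGACNNNGC, was in 4 of 32 windows (12.5%), close to its share of 14.5% among genes tested and 12.4% of all windows. These were Adrm1, Psmc6, Psmd12 and Psmd9, of which the last had it nearest to the start, 31 bases before it.

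Psmd9, chr5:123228149-123228178: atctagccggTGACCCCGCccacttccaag
Psmc6, chr14:45329587-45329616: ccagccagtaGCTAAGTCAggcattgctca

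Among other promoter motifs, the CCAAT box was in 37.5% of windows of these genes and 37.8% of windows of genes tested. The GC box GGGCGG was in 59.4% and 62.5%, and the E-box CACGTG in 6.25% and 10.1%. The median GC content was 59.0% in the windows of these genes and 60.7% in those of genes tested. Each motif was searched on both strands without regard to the others, so that matches of different motifs may overlap. A match is a run of letters and not evidence that a factor binds there.

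Maea itself spans positions 33335509 to 33373296 of chromosome 5 (mm10). Control replicates 1, 2 and 3 held 108, 116 and 123 CPM of it, and the MaeaCsf1r-Cre replicates 76.9, 88.6 and 101 CPM. The groups did not overlap, in the direction of the deletion, where 6.06% of all genes tested were lower without overlap. Its fitted log2 fold change was -0.39 (standard error 0.13, unadjusted p = 0.0214 and adjusted p = 0.967 from limma). With the replicate number as a block in limma, the adjusted p was 0.218. Maea itself thus did not pass the adjusted p in either run. Reads from deleted and retained exons are not separated in these values. The libraries held 32966800 to 39614140 reads in control and 44158400 to 60936600 in MaeaCsf1r-Cre HSCs, computed from the steps between low CPM values. In bulk RNA such as this, a change in the share of cells of a type and a change in RNA per cell cannot be told apart. Of the 12 HSC markers examined all were detected, at summed levels of 1562 to 2595 CPM in control and 1086 to 2013 CPM in MaeaCsf1r-Cre libraries. The macrophage list of 12 genes, which includes Csf1r, summed to 71.8 to 163 and 46.3 to 115 CPM, and the lists for erythroid cells, B cells and neutrophils to at most 140, 28.0 and 219 CPM in any library. The neutrophil sum of 219 CPM, in control replicate 1, held 181 CPM of Mpo and 36.9 CPM of Elane. Of 8 B cell genes 7 were below 1 CPM in every library, and Cd79b was at 12.9 to 27.2 CPM. The B cell genes Ms4a1, Pax5 and Igll1 and the neutrophil gene Ly6g were at 0 in every library.

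Proteasome transcripts were abundant in every library. Over the 216 values of 36 genes in 6 libraries, levels ran from 27.8 to 330.0 CPM, with 1040 to 20107 reads behind each. Counting error was at most 1.03 to 3.10% for a gene, below the median coefficient of variation between libraries of the same group, which was 13.1% in control and 16.2% in MaeaCsf1r-Cre HSCs. These values cover counting error only, since amplified reads are not independent molecules.

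Levels of different genes were compared as CPM per kilobase of the annotated principal transcript, so they depend on which transcript is annotated. Of the 36, Psmb2 was the most abundant per kilobase, at 256 ± 15.2 CPM per kb in control and 280 ± 52.7 in MaeaCsf1r-Cre HSCs (SD, n = 3 each). Psma7 at 241 ± 13.7 and Psma1 at 217 ± 27.7 CPM per kb in control followed it, and the SDs of neighbours in this order overlapped. All 3 are subunits of the core rings. At the low end were Psmd9 at 18.8 ± 3.57, Psma3 at 20.8 ± 3.08 and Psmd10 at 28.3 ± 4.0 CPM per kb in control (SD, n = 3 each). Psmd9 and Psmd10 encode chaperones that escort ATPases into the 19S base and are not part of the finished particle. The 6 ATPases, which form 1 ring, were at 43.6 to 93.3 CPM per kb in control, with Psmc6 the lowest at 43.6 ± 8.63 and the other 5 between Psmc2 at 73.9 ± 14.4 and Psmc1 at 93.3 ± 6.5 (SD, n = 3 each). The 15 other 19S genes were spread more widely, from 18.8 to 131.8 CPM per kb, and Psmd7, a lid subunit, was the highest of them. The 4 assembly factors were at 38.7 to 71.7 CPM per kb.

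**Figure D1:**
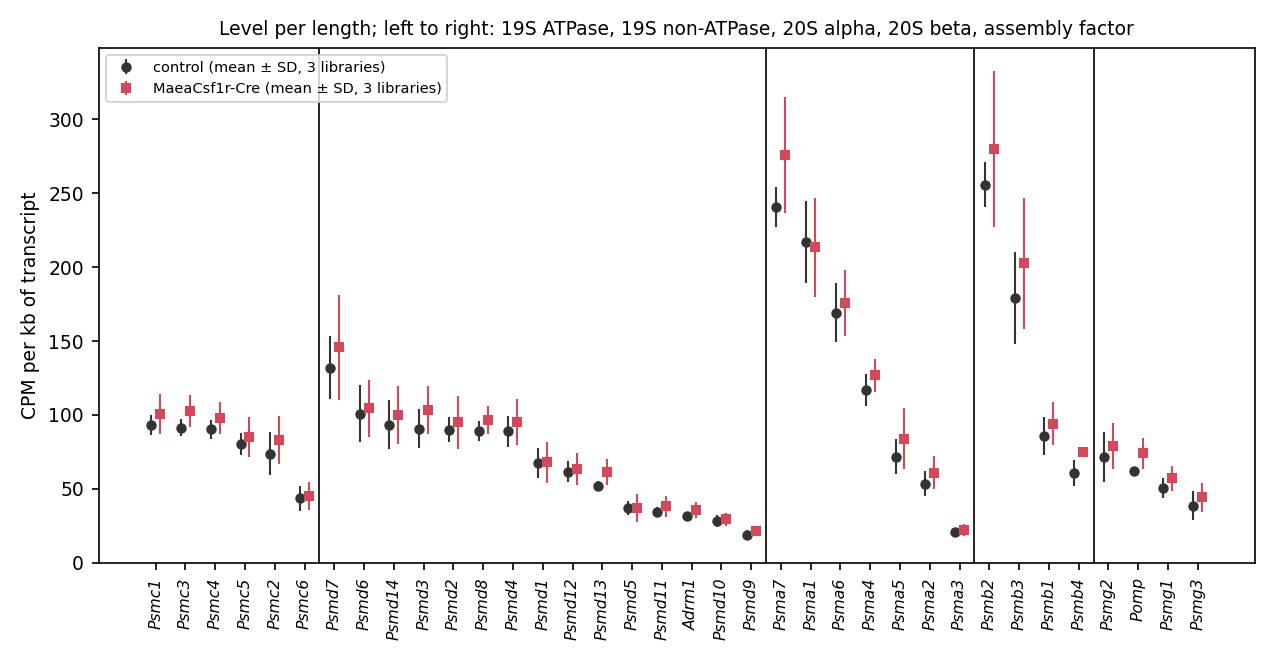
Level of each of the 36 genes as CPM per kilobase of its annotated principal transcript (vertical axis), as mean ± SD of 3 control (black circles) and 3 MaeaCsf1r-Cre libraries (red squares), with genes grouped by role and ordered by control level. Psmb2, Psma7 and Psma1 are the highest and Psmd9 and Psma3 the lowest, and Psma3 is among the genes whose reads may be split with copies.

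Some of these levels were uncertain because reads can be shared with near-identical copies elsewhere in the genome. Matches to another gene's transcript of 95% identity or more over at least 300 bases were counted. For 8 of the 36 genes the table held such a copy at another place in the genome; for Psmd1 and Psmd13 the match, to Gm21972 and Sirt3, was an overlapping neighbour at the same place and was not counted as a copy. Psma3, an alpha subunit, carried 23.5% of the CPM summed over itself and its 4 copies. Its pseudogene Gm13835, identical over 665 bases, was listed at 218, 152 and 194 CPM in control and 247, 166 and 202 CPM in MaeaCsf1r-Cre replicates 1, 2 and 3, above Psma3 itself in every library. Psma3 and its copies summed to 248 ± 42.9 CPM for control and 270 ± 52.1 CPM for MaeaCsf1r-Cre HSCs (SD, n = 3 each), against 59.1 ± 8.77 and 62.8 ± 11.4 CPM for Psma3 alone. Adrm1, a ubiquitin receptor of the 19S cap, held 49.2% of its sum with Gm9774, and Psma5, an alpha subunit, 50.1% of its sum with Gm8394 and Gm12989. Psmd11, a lid subunit, held 66.4%. The remaining 4, Psma4, Psmd2, Psmb3 and Psmc1, held 91.0 to 96.6%. Over the 6 libraries the share on the gene lay between 22.8 and 24.5% for Psma3, 48.2 and 51.3% for Adrm1, 49.5 and 51.3% for Psma5 and 63.9 and 68.2% for Psmd11.

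**Figure D2:**
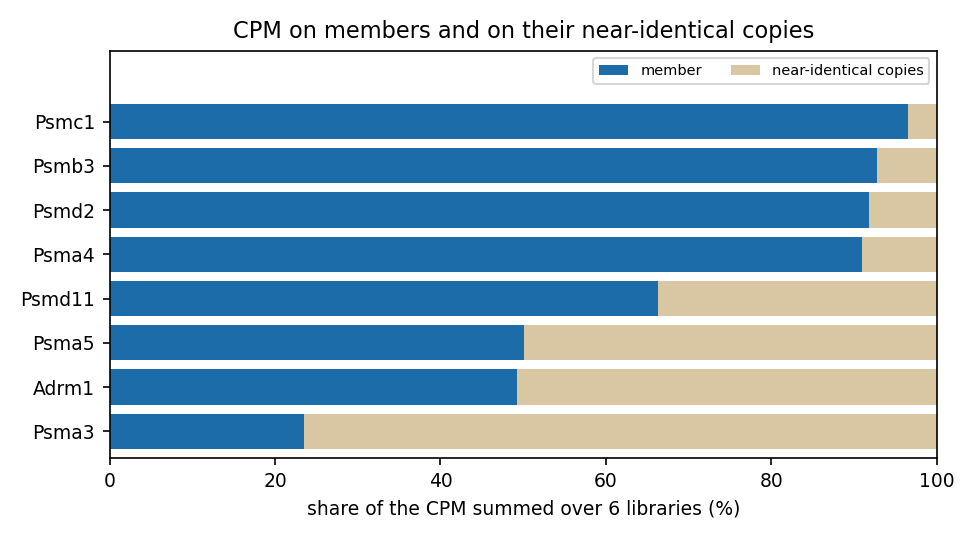
Share of the CPM summed over 6 libraries (horizontal axis, %) that the table assigned to each of 8 proteasome genes (blue) and to its near-identical copies (tan). The share on the gene is 23.5% for Psma3, about 50% for Adrm1 and Psma5, and above 90% for Psma4, Psmd2, Psmb3 and Psmc1.

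The comparison of MaeaCsf1r-Cre with control HSCs asked whether loss of a ubiquitin ligase subunit went with a change in the transcripts of the particle that degrades ubiquitinated protein. Transcripts of the 36 genes were slightly higher in MaeaCsf1r-Cre HSCs, by a median log2 fold change of 0.12 (1.09-fold), where the median of all genes tested was -0.06. The fitted change was above 0 for 34 of 36, against 39.1% of all genes tested. None of the 36 passed an adjusted p of 0.05 in limma's moderated test (0.00772% of all genes, 1 gene, did), and 0 of 36 had an unadjusted p under 0.05 (3.99% of all genes, and 0.803% with a higher level). Adjusted p-values were 0.967 or above, and standard errors from 0.12 to 0.22 on the log2(CPM + 1) scale; the fitted change was larger than its standard error in 10 of 36. The groups failed to overlap for 2 of 36 genes, both higher in MaeaCsf1r-Cre HSCs, where 2.49% of all genes were higher without overlap and 6.06% were lower, 8.55% in all. The size depended on single libraries and was smallest without MaeaCsf1r-Cre replicate 1. Without that library the median was 0.01, where that of all genes was -0.05. Then 20 of 36 were above 0 (37.8% of all genes), and 2 did not overlap (4.27% of all genes). Without control replicate 2 the median was 0.06, where that of all genes was -0.05, and 25 of 36 were above 0 (38.3% of all genes). Without replicate 1 of both groups the median was 0.06, where that of all genes was -0.07, and 30 of 36 were above 0 (37.1% of all genes). The count without overlap also moved with the scaling: 5 of 36 after median-ratio scaling, where all 36 were above 0 (4.7% and 50% of all genes), and 6 after quantile normalization, where 33 were above 0 (5.19% and 53.1%). Without MaeaCsf1r-Cre replicate 2 it was 10, and all 36 were above 0 (9.8% and 46.8% of all genes). It was 9 without control replicate 1 (8.31%) and 5 without control replicate 3 (5.15%). Without replicate number 1, 2 or 3 of both groups it was 9, 10 and 5, where 10.3%, 12.6% and 6.99% of all genes were higher without overlap.

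**Figure D3:**
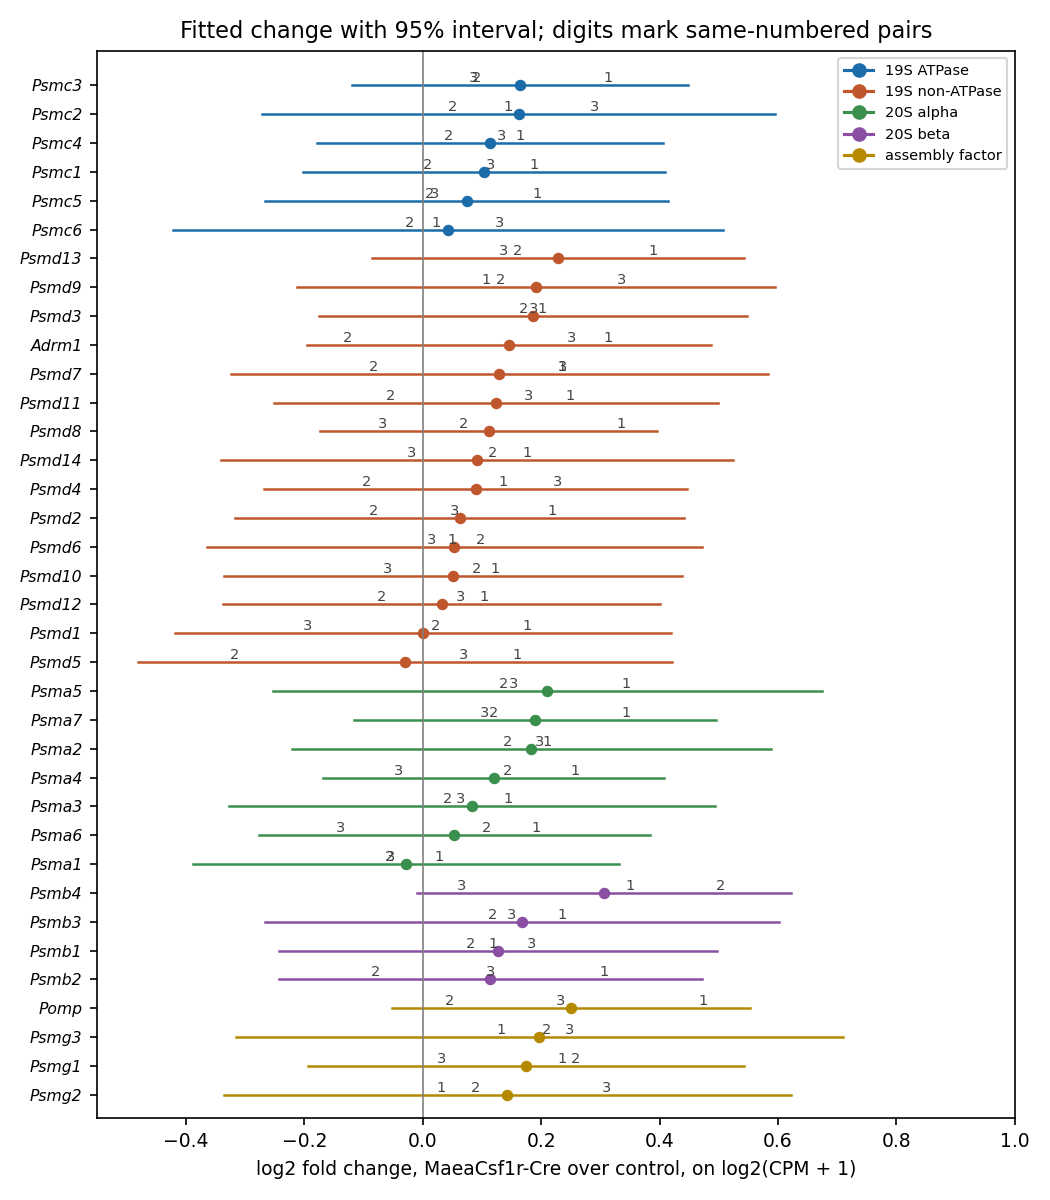
Fitted log2 fold change of MaeaCsf1r-Cre over control on the log2(CPM + 1) scale (horizontal axis), as a point with its 95% interval for each of the 36 genes, coloured by role; the digits 1, 2 and 3 mark the difference within each same-numbered pair of libraries. All 36 intervals include 0, and Psmb4 and Pomp have the largest changes, 0.31 and 0.25.

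The beta subunits had a median log2 fold change of 0.15, and all 4 were above 0. Psmb4, a noncatalytic beta subunit encoded on chromosome 3 (94884093 to 94886961), had the largest change of the 36 genes. It was at 72.1, 61.5 and 82.5 CPM in control replicates 1, 2 and 3 and at 92.1, 87.5 and 86.3 CPM in MaeaCsf1r-Cre replicates 1, 2 and 3. Every MaeaCsf1r-Cre library was above every control library, by a narrow margin between control replicate 3 and MaeaCsf1r-Cre replicate 3. Its fitted change on the log2 scale was 0.31 (standard error 0.14, unadjusted p = 0.0563 and adjusted p = 0.967 from limma). Psmb2, the most abundant per kilobase, was at 230, 205 and 225 CPM in control and 284, 194 and 243 CPM in MaeaCsf1r-Cre replicates, and replicate 2 of both groups was the lowest. Psmb3, another noncatalytic subunit, was at 164, 117 and 131 CPM in control and 193, 128 and 145 CPM in MaeaCsf1r-Cre HSCs. Its libraries kept the same order in both groups, replicate 1 highest and replicate 2 lowest, and the groups overlapped.

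The assembly factors had a median of 0.19, and all 4 were higher in each of the 3 same-numbered pairs. Pomp, which holds the early beta ring together until the core is mature and is then degraded, lies on chromosome 5 from 147860461 to 147876456. It was at 97, 99.4 and 96.5 CPM in control and 135, 103 and 114 CPM in MaeaCsf1r-Cre replicates 1, 2 and 3. The controls lay close together, with an SD of 1.54 CPM, and every MaeaCsf1r-Cre library was above them. On the log2 scale the change was 0.25 (standard error 0.13, unadjusted p = 0.0922 and adjusted p = 0.967 from limma), and it was 0.14 without MaeaCsf1r-Cre replicate 1. Psmg1 and Psmg2 form a dimer that builds the alpha ring. Psmg1 was at 59.1, 45.1 and 53.6 CPM in control and 69.7, 54.1 and 54.8 CPM in MaeaCsf1r-Cre HSCs. Psmg2 was at 96.4, 62.2 and 69.3 CPM in control and 98.5, 66.2 and 86.2 CPM in MaeaCsf1r-Cre HSCs. Both overlapped between groups, and control replicate 1 was above 2 of the 3 MaeaCsf1r-Cre libraries.

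The alpha subunits had a median of 0.12, with 6 of 7 above 0. Psma5, whose reads may be split with its copies, was at 104, 74.5 and 88.1 CPM in control and 132, 82.0 and 98.0 CPM in MaeaCsf1r-Cre HSCs, and Psma7 at 230.5, 206 and 224 CPM and at 293, 224 and 241 CPM. In both genes MaeaCsf1r-Cre replicate 1 stood above the other libraries and the remaining values overlapped. The log2 fold changes were 0.21 (standard error 0.20) and 0.19 (standard error 0.13), with adjusted p = 0.967 for each from limma. Psma1 had the lowest fitted change of the 7. It was at 293, 226 and 263 CPM in control and 298, 218 and 253 CPM in MaeaCsf1r-Cre HSCs, a log2 fold change of -0.03 that was 0.03 after median-ratio scaling.

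The 19S ATPases had a median of 0.11, and all 6 were above 0. Psmc3 was at 149, 141 and 159 CPM in control and 185, 150 and 169 CPM in MaeaCsf1r-Cre replicates 1, 2 and 3, 0.16 higher on the log2 scale (standard error 0.12, limma's adjusted p = 0.967). Psmc4, whose promoter holds the NRF1 site printed above, was at 140, 122 and 129 CPM in control and 157, 125 and 141 CPM in MaeaCsf1r-Cre HSCs. Both genes were higher in each pair and overlapped between the groups. Psmc6 had the smallest change, 0.04, with 118, 79.1 and 95.4 CPM in control and 119, 77.9 and 104 CPM in MaeaCsf1r-Cre HSCs: the paired libraries differed far less than the replicates of 1 group.

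Of the 15 other 19S genes 14 were above 0, with a median of 0.09 that was -0.05 without MaeaCsf1r-Cre replicate 1. The medians of the 5 groups were not tested against each other, and their order changed between alternatives. Psmd13, a lid subunit, was at 108, 96.6 and 106 CPM in control and 142, 108 and 117 CPM in MaeaCsf1r-Cre HSCs, 0.23 higher on the log2 scale (standard error 0.14, limma's adjusted p = 0.967). MaeaCsf1r-Cre replicate 2, at 108.0 CPM, lay just below control replicate 1, at 108.4 CPM, and no other values overlapped. One annotated transcript of Sirt3 is identical to Psmd13 over 329 bases, and the libraries did not mark strand, so reads there cannot be assigned to 1 gene. Psmd3, a lid subunit, was at 227, 175 and 182 CPM in control and 261, 197 and 207 CPM in MaeaCsf1r-Cre HSCs. Its 3 pairs differed by 0.20, 0.17 and 0.19 on the log2 scale, the most even of the named genes. Among the chaperones of the 19S base, Psmd9 had a change of 0.19 (standard error 0.17), Psmd10 of 0.05 (standard error 0.17) and Psmd5 of -0.03 (standard error 0.20). Ranges of a standard error to either side of these changes overlapped. Psmd5 was at 185, 154 and 148 CPM in control and 207, 124 and 155 CPM in MaeaCsf1r-Cre HSCs, and its change was 0.03 after median-ratio scaling and 0.12 after correction for transcript length.

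**Figure D4:**
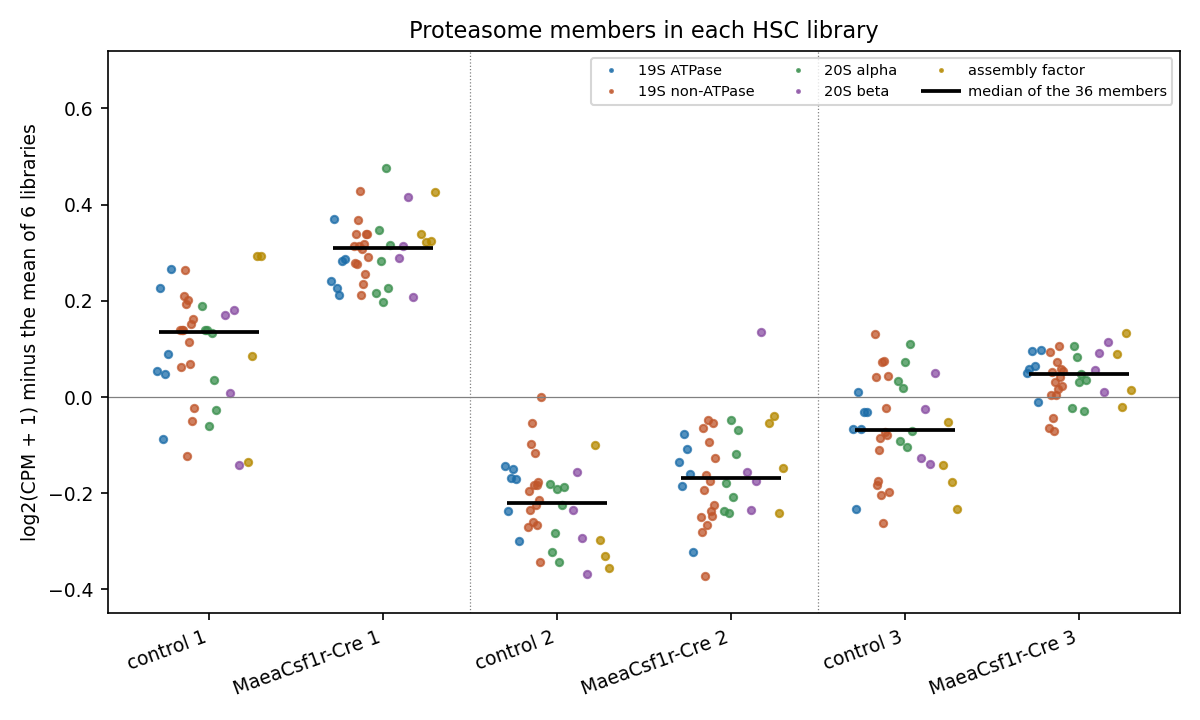
Each of the 36 genes in each library, as log2(CPM + 1) minus the gene's mean over 6 libraries (vertical axis), with same-numbered control and MaeaCsf1r-Cre libraries side by side, points coloured by role and the median as a black bar. The medians are 0.14 and 0.31 for replicate 1, -0.22 and -0.17 for replicate 2 and -0.07 and 0.05 for replicate 3 (control, then MaeaCsf1r-Cre).

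The genes moved with the library more than with the genotype. Relative to each gene's mean over 6 libraries, the median of the 36 was 0.14, -0.22 and -0.07 on the log2 scale for control replicates 1, 2 and 3, and 0.31, -0.17 and 0.05 for the MaeaCsf1r-Cre replicates. MaeaCsf1r-Cre replicate 1 was the highest library for all 36 genes, against 25.4% of all genes tested, and control replicate 2 was the lowest for 23 of 36, against 16.6%. MaeaCsf1r-Cre replicate 2 was the lowest for 9 more. The summed level of the 36 was 5249, 4238 and 4734 CPM in control and 6055, 4358 and 5029 CPM in MaeaCsf1r-Cre replicates. The highest library of a gene was 1.26 to 1.78 times its lowest. The summed CPM of the 11 core genes divided by that of the 21 genes of the 19S groups, chaperones included, was 0.587 to 0.618 in control and 0.600 to 0.621 in MaeaCsf1r-Cre libraries.

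Of the sum of squares of a gene over the 6 libraries, the replicate number took a median of 80.7% and genotype 11.6%, and the replicate number took the larger share in 33 of 36, against 79.7% of all genes tested. With more replicate numbers than genotypes, the replicate number takes more of a sum of squares by construction. Over all genes tested the medians were 58.8% and 12.8%. The exceptions were Psmb4 (60.3% genotype, 18.4% replicate number), Pomp (53.9% and 19.6%) and Psmd13 (44.5% and 44.4%). At the other end were Psma1 and Psmd6, with 98.0% and 97.8% on the replicate number. Pearson's r between 2 of the genes over the 6 libraries had a median of 0.85 over 630 pairs of genes, all above 0, and 0.09 over all pairs of genes tested. The points of each r are the same 6 libraries, so these pairs are not independent. Psmb4 was the least like the others, with a median r of 0.47.

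**Figure D5:**
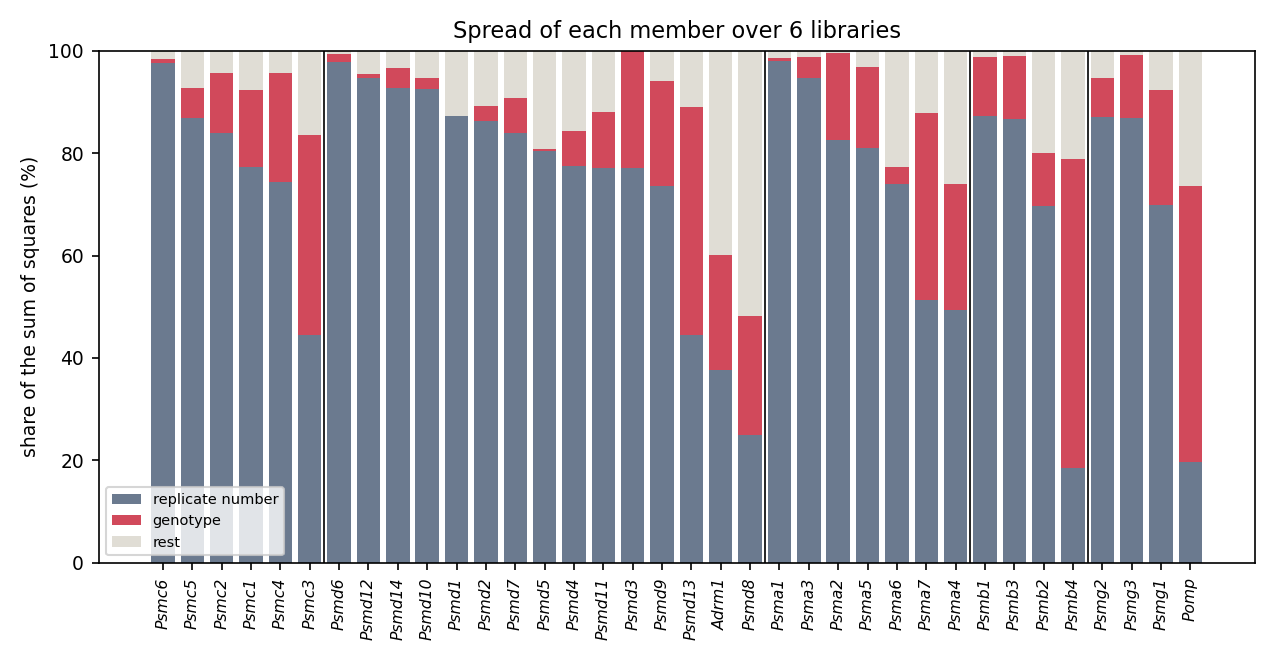
Share of each gene's sum of squares over 6 libraries (vertical axis, %) that goes with the replicate number (grey-blue), with genotype (red) and with neither (light), for the 36 genes grouped by role. The replicate number takes the larger share in 33 of 36, and genotype does in Psmb4, Pomp and Psmd13.

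Within same-numbered pairs the 36 genes were higher in MaeaCsf1r-Cre HSCs in 36, 26 and 29 cases for pairs 1, 2 and 3, where 46.9%, 31.8% and 51.4% of all genes were. In all 3 pairs 20 of 36 were higher, against 13.2% of all genes. With the replicate number as a block in limma, standard errors fell to between 0.08 and 0.12. Still 0 of 36 passed an adjusted p of 0.05, the smallest being 0.303 for Psmb4. Psmb4 and Psmd13 had an unadjusted p under 0.05 (0.0282 and 0.0463), 2 of 36 where 3.11% of all genes were higher and 13.9% passed in either direction.

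Other values differed between the same libraries. The 8 cycling-cell markers, among them Mki67, Top2a and Cdk1, summed to 1334, 997 and 1121 CPM in control and 1519, 1007 and 1391 CPM in MaeaCsf1r-Cre replicates 1, 2 and 3. MaeaCsf1r-Cre replicate 1 was the highest and replicate 2 of both groups the lowest for this sum, as for the sum of the proteasome genes. Single markers could differ: Mki67 was highest in MaeaCsf1r-Cre replicate 3 and Ccnb1 in control replicate 1. All 8 cycling-cell markers had a fitted change above 0, where 39.1% of all genes had, and 0 of 8 passed the adjusted p. The HSC marker sum was lowest in MaeaCsf1r-Cre replicate 1, at 1086 CPM, and highest in control replicate 2, at 2595 CPM. Of its 12 genes 10 had a fitted change below 0, where 39.1% of all genes were above 0. MaeaCsf1r-Cre replicate 1 was also the deepest library, at 60936600 reads, while control replicate 1, the second highest for proteasome genes, was the shallowest at 32966800 reads. The 36 transcripts are short, with a median annotated length of 1540.5 bases against 2822 for all genes tested, and shorter genes tended to higher changes (rho -0.31 by Spearman over 12473 genes, not independent of each other). After length correction the median was 0.16, where that of all genes was 0.03. The difference between these medians was 0.13, against 0.18 without the correction. After it, 35 of 36 were above 0 (56.1% of all genes) and 5 did not overlap (4.69%). Correction together with the replicate block left 0 of 36 past the adjusted p, and 9 of 36 with an unadjusted p under 0.05, all higher (7.18% of all genes). Of 10 macrophage markers tested, 9 had a fitted change below 0, where 39.1% of all genes were above 0. The other, Slc40a1, had a change of 0.12 (standard error 0.43). Of the 10, 5 (C1qa, C1qb, C1qc, Cd163 and Csf1r) were lower in every MaeaCsf1r-Cre library than in every control, against 6.06% of all genes. The adjusted p was passed by 0 of 10. C1qb was at 8.98, 3.79 and 5.37 CPM in control and 0.0328, 0 and 0.474 CPM in MaeaCsf1r-Cre HSCs (adjusted p = 0.194 from limma, 0.0615 with the replicate block). The part of the marker lists and of depth in the result was not tested.

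Of 49 other gene symbols of the pathway listed for comparison, older names included, 45 were in the table, and all 45 were tested. Their median log2 fold change was 0.04, with 30 above 0 and 15 below; 0 passed the adjusted p, and 3 had an unadjusted p under 0.05, all higher, where 0.803% of all genes were higher and 3.99% passed in either direction. The 3 catalytic beta subunits of the standard core stayed close to the structural subunits. Psmb5 (chymotrypsin-like), Psmb6 (caspase-like) and Psmb7 (trypsin-like) had changes of 0.08, 0.12 and 0.16. Their interferon-inducible counterparts in the immunoproteasome had larger ones, 0.64 for Psmb10, 0.45 for Psmb9 and 0.36 for Psmb8, with unadjusted p = 0.00685, 0.0125 and 0.0550 from limma and adjusted p = 0.967 for each. Psmb10 was at 67.1, 96.0 and 81.2 CPM in control and 153, 114 and 114 CPM in MaeaCsf1r-Cre HSCs, and the genotype took a median of 71.5% of the sum of squares of these 3 genes. The activator subunits Psme2 and Psme1 had changes of 0.52 and 0.35, while Psme3, Psme4 and the inhibitor Psmf1 were between 0.03 and 0.05.

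Genes upstream of and beside the particle had small fitted changes in both directions. Psmg4, the partner of Psmg3 in alpha ring assembly, had a change of 0.26 (standard error 0.17) and the shuttle factor Rad23b, which carries ubiquitinated protein to the cap, of 0.19 (standard error 0.14). Of 6 shuttle factors 4 were above 0, of 8 genes for p97 (Vcp, the ATPase that extracts ubiquitinated protein) and its cofactors 4 were, and of 4 ubiquitin genes 2 were. Both ubiquitin-activating enzymes, Uba1 and Uba6, were below 0. Of all genes tested, 39.1% were above 0. After correction for transcript length the changes were 0.09 for Uba1 and -0.03 for Uba6. The p97 cofactor Faf2 had a change of -0.23 (standard error 0.14), and of -0.08 after that correction. Nfe2l1, which raises proteasome transcription when degradation is blocked, was at 49.7, 66.1 and 68.9 CPM in control and 51.8, 56.9 and 56.3 CPM in MaeaCsf1r-Cre HSCs. Its change was -0.15 (standard error 0.15), and 0.0048 after correction for transcript length. It was lowest in replicate 1 of both groups, where proteasome transcripts were highest. A link between the levels of Nfe2l1 and of these transcripts was not tested. Nfe2l2, the oxidative stress factor of the same family, was at 119, 95.5 and 86.8 CPM and at 120.0, 77.8 and 104.6 CPM, a change of -0.0042 (standard error 0.19). None of these passed the adjusted p.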

How the data were processed

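RNA from sorted HSCs (CD150+ CD48- lineage- Sca-1+ c-kit+) went through SMART-Seq v4 amplification and Nextera XT library preparation. The authors used STAR 2.5.3a to align single-end reads to mm10, quantified Ensembl transcripts and normalised in Partek Flow; Trim Galore is named in the submitters' processing notes. The deposited values are CPM with 0.0001 added, which was subtracted. Of low values 71.0 to 73.6% lay within 0.02 of a whole read, so counts were not recovered and no count test was used.

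The 12955 genes at a CPM of 1 or more in 3 or more libraries entered the test on log2(CPM + 1), by limma 3.58.1 (R 4.3.3), mean-variance trend, two-sided, with Benjamini-Hochberg adjustment over all. This scale understates changes of low genes. Over genes, the deviations from the group mean went together in same-numbered libraries (r = 0.627, 0.523 and 0.397, others -0.459 to -0.0538), so the numbers from the labels were taken as pairs and the block is given where it matters. The labels do not say that a number marks a shared litter or day, and the pairing rests on the same values it was applied to. Deviations within a group sum to 0, so negative r in the other combinations was in part forced. Lengths are GENCODE M21 principal transcripts, copies came from BLAST+ 2.17.0, and promoters from RefSeq. Tables and plots used matplotlib 3.10.9, pandas 2.3.3 and numpy 2.4.6 under Python 3.11.15. The limma procedure was tested on simulated data. The changes planted there were far larger than those of the proteasome genes, so their recovery does not show how the procedure performs at that size.

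Genes and lists were chosen with earlier results of these data known. Named were, per group, the 2 smallest p and the lowest change, genes without overlap, the 3 highest and 3 lowest per kilobase, Nfe2l1, Nfe2l2, Psmb5 to Psmb7, the 8 pathway genes with the smallest p, and Maea; others named in the text were chosen after their values were seen. Alternatives were pseudocount 0.1, no filter or CPM of 10, median-ratio and quantile scaling, block, each library left out, no trend, and length correction (loess span 0.5); leaving out a number in both groups and adding copies were chosen after seeing the data.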

Additional observations from a re-analysis of the deposited data

How the results depend on the processing

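No gene of the 36 passed the adjusted p under any alternative run. The median log2 fold change was 0.12 to 0.18 under the other pseudocount, filters, scalings, length correction, replicate block and added copies, and 0.01 to 0.24 when each library was left out in turn. The median of all genes moved as well. It was -0.06 in the main run, 0.0002 after median-ratio scaling, 0.02 after quantile normalization and 0.03 after length correction. The median of the 36 exceeded it by 0.18, 0.18, 0.11 and 0.13 in these runs. The replicate block left the median at 0.12, the genes above 0 at 34 and those without overlap at 2, and changed no call. Genes above 0 numbered 20 to 36 with a library left out, the lowest without MaeaCsf1r-Cre replicate 1. Genes without overlap numbered 5 after median-ratio scaling, where 4.7% of all genes were higher without overlap, and 6 after quantile normalization (5.19%). After length correction, with or without the block, they numbered 5 (4.69%). With a library left out they numbered 2 to 10, 9 without control replicate 1 (8.31%) and 10 without MaeaCsf1r-Cre replicate 2 (9.8%). Without replicate number 1, 2 or 3 of both groups they numbered 9, 10 and 5 (10.3%, 12.6% and 6.99% of all genes). Length correction with the replicate block gave 9 of 36 genes an unadjusted p under 0.05 from limma, where 7.18% of all genes were higher at that p. Standard errors over 3 libraries per group were 0.12 to 0.22, and 0.08 to 0.12 with the block.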
